A study of Homo sapiens with 8 samples.

Results

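The binding landscape of TIA1 in HEK293T cells is described here from its eCLIP peak list. All 3215 peaks of the TIA1 list were taken, of 7442 in the series. For the main results none was set apart by its fold or its p-value. The other 4227 peaks form a separate list for the splicing regulator RBFOX2, used below only for comparison. In eCLIP, ultraviolet light crosslinks protein to RNA, the protein is pulled down, and the RNA that comes with it is sequenced. The TIA1 list joins 2 immunoprecipitated (clip) libraries with 2 input libraries, which were made without an antibody. HEK293T is an established line of transformed human kidney cells. Cells were irradiated with 600 mJ before lysis, and neither treatment nor time separates the groups. The labels name an antibody against the HA tag for the clip libraries, while one protocol text names beads bound to TIA1. How a tagged protein was expressed is not said, and the replicates are described both as biological and as technical.

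TIA1 is an RNA-binding protein with several RNA recognition motifs that binds U-rich RNA. In the nucleus it binds downstream of weak 5′ splice sites and helps to recruit the U1 snRNP. In the cytoplasm it represses translation and gathers in stress granules.

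The list gives 1 value per peak for both replicates together. No value per library, read depth or replicate spread can therefore be given, and intervals cover counting error only. Coordinates are in hg19, counted from 1, with the 5′ side of a site read from its strand. No genome or annotation of that build was used, so regions are identified by position, without gene names, exons, introns or sequence.

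Peaks at most 50 bases apart on a strand were joined, which left 2413 sites. A single peak made up 1879 sites, or 77.9% (95% Clopper-Pearson interval 76.2 to 79.5%). A pair of peaks made up 380 sites, and 154 sites, 6.38% (5.44 to 7.43%), held 3 or more. These 154 sites held 576 peaks, 17.9% of the list. Peaks of a site mostly touched: 662 of 802 neighbouring pairs within sites, 82.5% (79.7 to 85.1%), had no base between them, and 0 pairs overlapped. Of the 534 sites with at least 2 peaks, 409 were covered by peaks from end to end. In the RBFOX2 list, joined in the same way, 76.7% of such pairs touched and 0 overlapped. Whether touching peaks are separate binding events or segments of a longer enriched stretch was not tested. The number of peaks in a site may therefore count segments, also where sites are ranked by it below.

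Site width ran from 2 to 495 bases, with a median of 78 and quartiles at 45 and 118. The median was 73 bases for sites of 1 peak, 95 for sites of 2 and 131 for sites of 3. Sites wider than 200 bases numbered 122, 5.06% (4.22 to 6.01%). At the other end, 246 sites, 10.2% (9.02 to 11.5%), were under 20 bases.

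**Figure D1:**
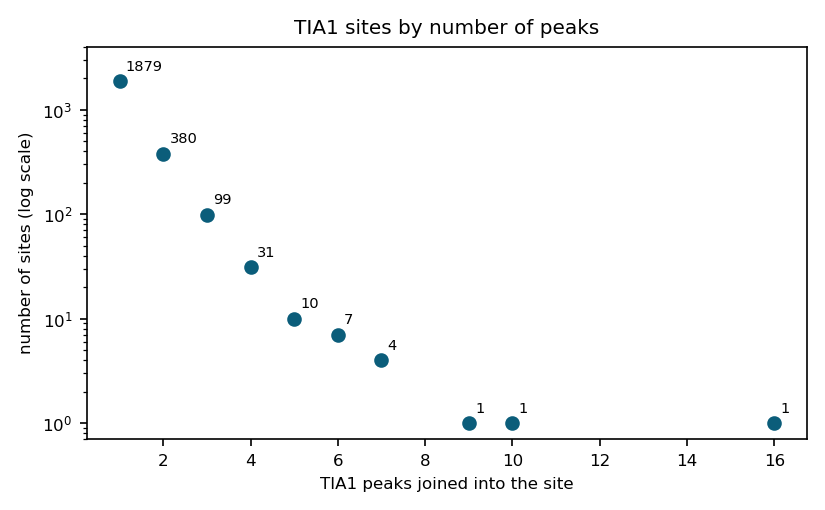
Number of TIA1 sites (vertical axis, log scale) by the number of peaks joined into the site (horizontal axis), with the count beside each point. Sites of 1 peak number 1879, sites of 7 peaks 4, and 1 site each holds 9, 10 and 16 peaks.

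The sites with most peaks are numbered here by rank, and 14 sites had 6 or more. Site 1 held 16 peaks in 197 bases of chromosome 1 (109642956 to 109643152, plus strand). Site 2 held 10 peaks in 182 bases of chromosome 20 (57466450 to 57466631, plus), and site 3 held 9 in 315 bases of chromosome 9 (131451527 to 131451841, plus). The 4 sites of 7 peaks lay on chromosomes 12, 21, 6 and 8, and were 495, 311, 111 and 94 bases wide. The same number of peaks thus spread over very different lengths. The 7 sites of 6 peaks were 100 to 457 bases wide. Of the 14 sites, 11 had no other site within 10 kb on the strand, against 64.4% of all 2413 sites.

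Within these sites the log2 fold of clip over input, the authors' own value per peak, changed from peak to peak in different ways. Site 1 showed a pair of summits. From the 5′ end its log2 fold rose from 3.20 to 3.98 over the first 4 peaks and was 3.03 in the fifth. It then climbed to 4.69 in the ninth peak (109643078 to 109643093) and ended at 3.05. Site 3 was high on the 5′ side, with 4.84 in the fourth of its 9 peaks and 3.16 in the last. Site 6 (26156595 to 26156705 on chromosome 6, plus) fell at each step, from 4.05 in the 5′-most of 7 peaks to 3.09 in the 3′-most.

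Site 12 ran the other way, from 4.82 in the 5′-most to 5.48 in the 3′-most of 6 peaks (232573240 to 232573341 on chromosome 2, plus). Site 5 had the widest range of all 154 sites with 3 or more peaks. It lay on the minus strand of chromosome 21 from 34143760 to 34144070. Its 5′-most peak had a log2 fold of 3.03, a peak of 14 bases in its 3′ part had 6.13, and the last had 3.72. Site 4, the 495-base site on chromosome 12, was flat, with 7 peaks between 3.26 and 3.69. Site 7, on chromosome 8 (145625382 to 145625475, minus), was also flat, between 3.51 and 3.90.

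**Figure D2:**
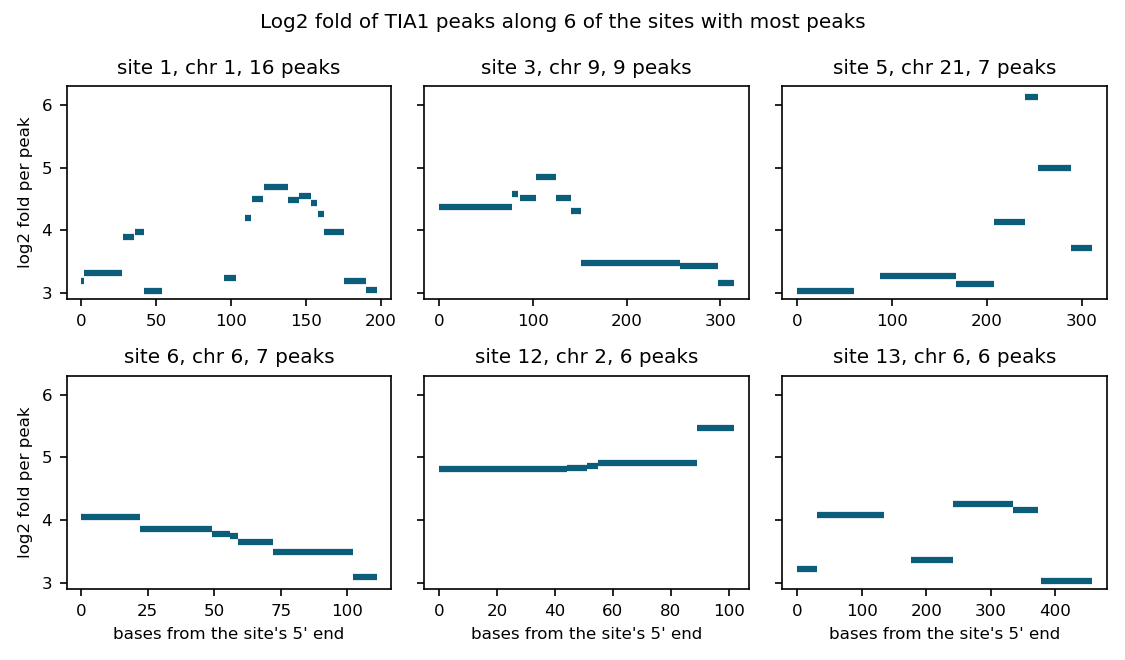
Log2 fold per peak (vertical axis) against distance in bases from the 5′ end of the site (horizontal axis) for 6 of the sites with most peaks. Each bar is 1 deposited peak drawn to its width, with no replicate error. Site 6 steps down from 4.05 to 3.09, site 12 steps up from 4.82 to 5.48, and site 5 peaks at 6.13.

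The highest log2 fold stood in an inner peak in 12 of these 14 sites, where inner peaks were 77 of 105 and made up a mean of 71.3% of a site's peaks. Over all 154 sites of 3 or more peaks it was an inner peak in 83, 53.9% (45.7 to 62.0%). Inner peaks made up a mean of 41.9% of the peaks of a site. It was the 5′-most peak in 45 sites, 29.2% (22.2 to 37.1%), and the 3′-most in 26, 16.9% (11.3 to 23.8%). A single end peak made up a mean of 29.1% of the peaks of a site. The intervals take sites as independent, and no test was made. The list holds no peak under the lowest log2 fold given below for it, so weaker stretches beside a site are not seen. A site can therefore end where the fold drops under that value, which favours an inner maximum in advance. The shares of peaks are thus not a fair baseline, and an inner preference cannot be read from these counts. The range of log2 fold within a site had a median of 0.52 and quartiles at 0.31 and 0.85. Among the 1336 peaks of sites with at least 2 peaks, 40.4% of the variance of log2 fold lay within sites.

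The widest sites were mostly not those with most peaks. After site 4, the next was 458 bases in 4 peaks on chromosome 3 (25705799 to 25706256, minus). Site 13, on chromosome 6 (163835787 to 163836243, plus), had 457 bases in 6 peaks. The fourth, on chromosome 10 (35625446 to 35625878, plus), had 433 bases in 3 peaks, and the other 6 were 350 to 378 bases wide. Peaks covered at least 85.2% of each of the 10 widest sites, which held 40 peaks in all. Of these 10 sites, 2 were also among the 14 with most peaks, and 9 stood alone in their 10 kb surroundings, against 64.4% of all sites.

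The distance from each site to the next on its strand was measured to see how sites lie along the genome. Of 2365 gaps, 550, or 23.3% (21.6 to 25.01%), were at most 10 kb, and 932, or 39.4% (37.4 to 41.4%), were over 1 Mb. Gaps of at most 10 kb had a median of 696.5 bases, and 317 gaps were at most 1 kb. The longest gap within 10 kb was 9752 bases. Sites rarely faced one another: 8 of 2413 sites, 0.332% (0.143 to 0.652%), had a site on the opposite strand within 1 kb. Overlap with an opposite-strand site was seen in 0 of 2413, which allows a share of up to 0.153% by the upper Clopper-Pearson limit.

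**Figure D3:**
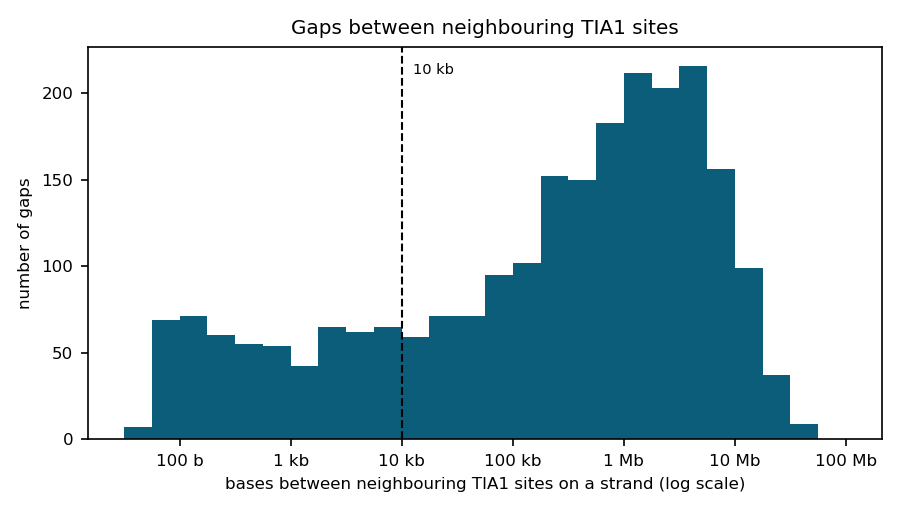
Number of gaps between neighbouring TIA1 sites on a strand (vertical axis) by gap length (horizontal axis, log scale), with a dashed line at 10 kb. Of 2365 gaps, 550 are at most 10 kb and 932 are over 1 Mb.

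Sites at most 10 kb apart on a strand were grouped into 1863 loci. A locus stands in for a gene, and can split a long gene or join neighbours. A single site made up 1555 loci, 83.5% (81.7 to 85.1%), and these were 64.4% of all sites. There were 213 loci of 2 sites, 44 of 3 and 17 of 4. The remaining 34 loci had 5 to 12 sites and held 232 sites, 9.61% of the total (8.47 to 10.9%). The span of these 34 loci ran from 1966 to 31349 bases, with a median of 13936.

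Width and peak number were compared between sites that stood alone and sites in crowded loci. The median width was 92 bases for the 1555 sites that stood alone, 58 for the 626 in loci of 2 to 4 sites, and 40 for the 232 in loci of 5 or more. The share of sites with 2 or more peaks was 18.7% (16.8 to 20.7%), 27.5% (24.0 to 31.2%) and 30.6% (24.7 to 37.0%) in the same order. The median of the highest log2 fold per site was 3.38, 3.38 and 3.33. The list holds no peak under a log2 fold of 3, so these medians lie near its lower limit. They are also maxima over unlike numbers of peaks, so equal enrichment cannot be read from them. The median of the highest −log10 of the p-value (−log10 p) per site was 6.42, 7.66 and 7.24. These differences between classes were not tested.

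The 20 loci with most sites, numbered by rank, held 162 sites, 6.71% of all (5.75 to 7.79%), and 256 peaks. They lay on 11 chromosomes, 9 on plus and 11 on minus strands. Of their 162 sites, 106 were single peaks and 37 were under 20 bases wide, with a median width of 36 bases. In 13 of the 20 loci at least 1 gap exceeded 5 kb.

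Loci 1, 2 and 3 tied at 12 sites and were ordered by their number of peaks. Locus 1 held 12 sites and 27 peaks on the plus strand of chromosome 21 (47406859 to 47423436). Its 5′-most site held its largest number of peaks, 5 in 128 bases, and 9 of its 12 sites lay 5′ of the middle of the span. Its highest log2 fold, 4.69, was at 47412662 to 47412724. Locus 9 lay 107928 bases further along the same strand, with 8 sites and 12 peaks from 47531365 to 47546139. Together loci 1 and 9 supplied 20 of the 52 sites of chromosome 21, or 38.5%.

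Locus 2 held 12 sites and 23 peaks on the minus strand of chromosome 16 (88786627 to 88801107). Its sites formed 3 groups of 3, 5 and 4 sites from the 5′ side, with an empty stretch of 6485 bases after the first group. Its last site (88786627 to 88786691) had its highest log2 fold, 4.05.

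Loci 3 and 8 were neighbours on the minus strand of chromosome 1, parted by 10083 bases, just over the limit for joining. Together they held 20 sites and 27 peaks over 45.5 kb. Locus 3 (19439018 to 19455510) had 12 sites, with gaps of 58 to 4033 bases, and its last 3 sites crowded at 19439018 to 19439331. Locus 8 (19465594 to 19484490) had 8 sites and was sparser, with a median gap of 2690 bases against 891.

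Locus 4 held 10 sites and 23 peaks on the minus strand of chromosome 8 (145620235 to 145634473). A site of 4 peaks stood at the 5′ side, a gap of 8310 bases followed, and the other 9 sites came after it. Among these was site 7 with its 7 peaks. Locus 5, on chromosome 12 (49419965 to 49444370, minus), spread 10 sites over 24.4 kb, and none had more than 2 peaks. Locus 13, also on chromosome 12 (56559246 to 56583488, minus), was similar, with 7 sites of 1 peak each over 24.2 kb.

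Locus 6 was the most fully covered of the 20. It held 9 sites and 20 peaks on chromosome 19 (54962517 to 54969137, plus), and peaks covered 10.00% of its 6621 bases, against 1.07 to 7.25% in the other 19. Locus 7, on chromosome 9 (117050735 to 117063594, plus), had its first 8 sites between 117050735 and 117054489 and the ninth after a gap of 9074 bases. Of its 9 sites, 5 were of nearly one size, 49 to 52 bases. The highest −log10 p per site in locus 7 was 6.04 at 117054384 to 117054489. At its other sites it was 3.29 to 4.98, where the lowest in the list was 3.01. With a −log10 p of at least 5, an alternative used below, locus 7 therefore keeps peaks at only that site. Locus 12, on chromosome 3 (48603980 to 48616387, minus), held 8 sites, with a median gap of 167 bases and a longest gap of 4594.

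Loci 10 and 11 held 8 sites each over 15.1 and 15.5 kb of chromosomes 7 and 19. Loci 14 to 19 held 6 sites each. Locus 20 had 5 sites but 12 peaks, of which its 5′-most site held 5 in 182 bases (2802671 to 2802852 on chromosome 16, plus). Among the 34 loci of 5 or more sites, sites per kb were highest in a locus of chromosome X, with 5 sites in 1966 bases (153696509 to 153698474, plus), or 2.54 per kb. Locus 14 followed with 2.24 per kb on chromosome 7 (100281645 to 100284319, minus), then locus 6 with 1.36 and locus 17 with 1.18. The next was a locus of chromosome 2 (27459680 to 27464916, plus) with 0.955 per kb.

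**Figure D4:**
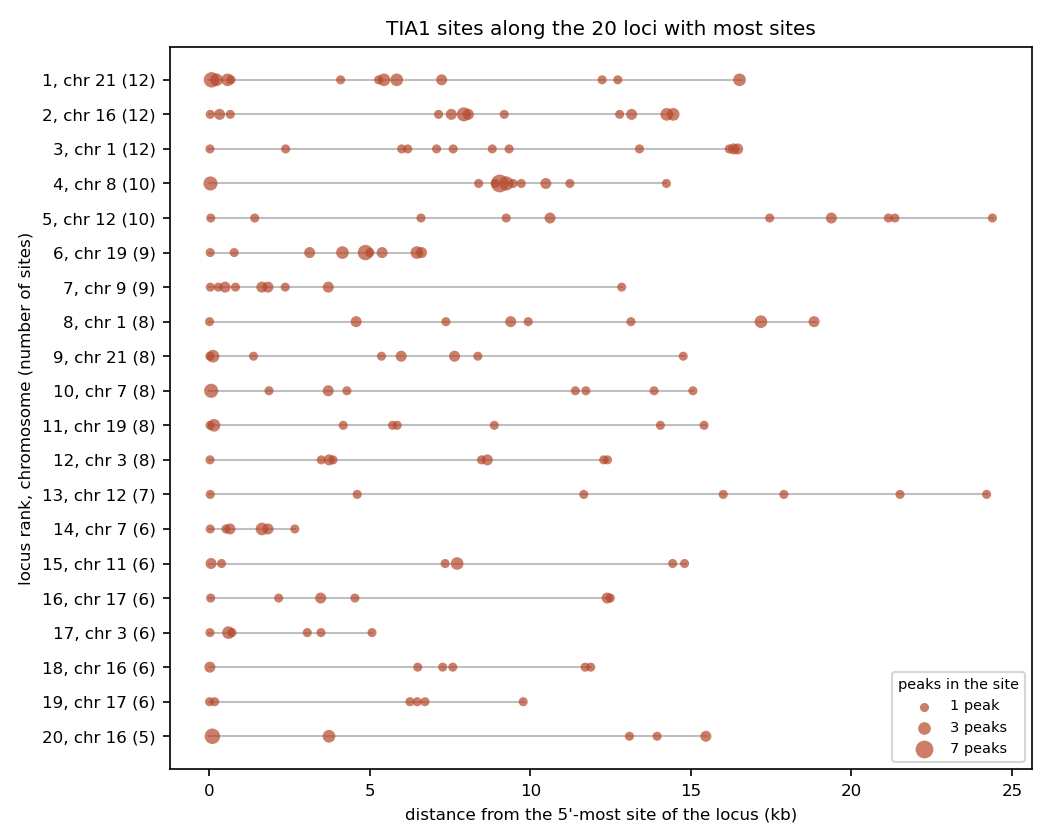
Each row is 1 of the 20 loci with most TIA1 sites, labelled by rank and chromosome with the number of sites in parentheses. The horizontal axis gives the distance in kb from the 5′-most site, in the direction of transcription, and point area grows with the number of peaks in the site. Locus 4 has 1 site at the 5′ side and 9 beyond a gap of 8310 bases, and locus 7 has 8 of 9 sites in its 5′ part.

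Over all loci of 5 or more sites, sites were spread about evenly over both ends of the span. Of the 232 sites in loci of 5 or more, 112 lay 5′ of the middle, 48.3% (41.7 to 54.9%). Single loci differed: locus 4 had 1 site 5′ of the middle and 9 beyond it, locus 7 had 8 and 1, locus 18 had 1 and 5, and locus 6 had 3 and 6. The ends of a span are set by its outermost sites, so the middle is that of the bound stretch and not of a gene. Each side of the middle therefore holds at least 1 site in every locus, which pulls the share toward an even split. The interval also takes sites of a locus as independent.

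By chromosome, sites per locus ran from 1.07 on chromosome 18 to 1.58 on chromosome 21, leaving aside chromosomes M and Y with 1 site each. Chromosome 1 had most sites, 226 in 178 loci. Chromosome 19 had 202 sites in 131 loci, and chromosome 16 had 149 in 96. The plus strand held 1255 sites, or 52.01% (49.99 to 54.02%). The share on plus ran from 30.2% of 86 sites on chromosome 8 to 69.2% of 52 on chromosome 21, again without M and Y. Locus 4, on minus, supplied 10 of the 86 chromosome 8 sites, or 11.6%, and 26 of the 86 lay on plus. Loci 1 and 9, both on plus, held 20 of the 36 plus sites of chromosome 21. How far single loci account for the strand share of a chromosome was not tested.

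**Figure D5:**
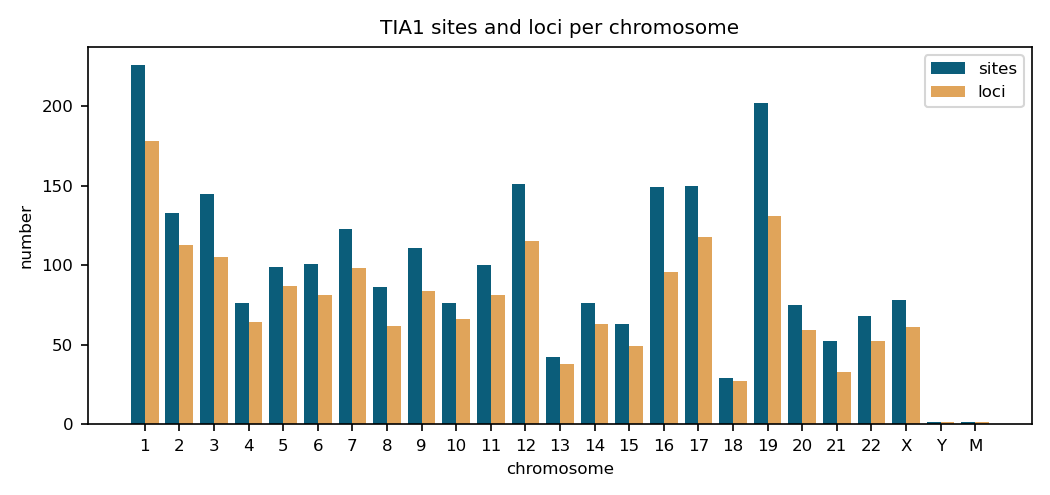
Number of TIA1 sites (dark bars) and of loci (light bars) per chromosome. Chromosome 1 has 226 sites in 178 loci, and chromosome 21 has 52 sites in 33 loci.

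The layout was then set against that of the 2749 RBFOX2 sites, joined in the same way. Each protein has a single list with no value per replicate, and neighbouring sites are not independent, so shares are given side by side with no p-value. Sites with 2 or more peaks were 22.1% for TIA1 and 28.2% for RBFOX2 (odds ratio 0.724). Sites with another site within 1 kb on the strand were 23.5% and 33.0% (odds ratio 0.623). Whether these shares differ beyond replicate spread cannot be told from lists whose depths are not known. The number of peaks may also count segments of a longer stretch in either list.

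Sites in loci of 5 or more numbered 232 of 2413 in 34 loci for TIA1 and 110 of 2749 in 20 loci for RBFOX2 (odds ratio 2.55), a comparison added after the values were seen. The odds ratio depended on the joining and on narrow peaks. With only touching peaks joined the shares were 11.3% and 11.9%, with an odds ratio of 0.939, and with joining within 200 bases the odds ratio was 5.03. Without peaks under 20 bases it was 1.44, with 5.09% of TIA1 sites and 3.59% of RBFOX2 sites in such loci. The median span of such loci was 13936 bases for TIA1 and 4007.5 for RBFOX2.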

How the data were processed

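The authors deposited 1 peak list per protein, tied by its sample descriptions to all 4 libraries of that protein. The files have no header. From their ranges, one deposited column was read as −log10 of a p-value (3.01 to 400 for TIA1) and another as the log2 fold of clip over input (3.00 to 6.37). Every peak of sites 6 and 12 had a value of exactly 400, so 400 appears to be a ceiling and not a measured maximum. The TIA1 list holds no peak under either lower value. The submitters' processing notes name hg19 and the tools SAMtools 1.6, STAR 2.4.0i, cutadapt 1.14 and UMI-tools 1.0.0. No source used here names the peak caller.

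Joining peaks within 50 bases gave sites, and joining sites within 10 kb gave loci. Shares carry 95% Clopper-Pearson intervals. The lists were compared by odds ratios. Fisher's exact test had been planned, and its p-values are not given because sites of 1 list are not replicates. Joining was tested on simulated data. Software was matplotlib 3.10.9, statsmodels 0.14.6, scipy 1.17.1, numpy 2.4.6 and pandas 2.3.3 under Python 3.11.15.

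Described singly are the 20 loci with most sites (ties by peaks), the 10 sites with most peaks and, added after their values were seen, those tied with them (14 in all), the 10 widest sites, and the 5 loci of 5 or more sites with most sites per kb. Members and rules were chosen with earlier results of these data known. Genes, location classes and sequence motifs need an hg19 reference and were not analysed here. Alternatives were other joining and grouping distances, peaks of at least 20 bases, a stricter −log10 p or fold, and autosomes only.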

Additional observations from a re-analysis of the deposited data

How the results depend on the processing

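The odds ratio against RBFOX2 stayed under 1 in all 6 alternatives run for sites of 2 or more peaks (0.543 to 0.775) and for sites within 1 kb (0.327 to 0.674). The share in loci of 5 or more sites turned with only touching peaks joined (odds ratio 0.939). No odds ratio was taken for this share at a log2 fold of at least 4. There the richest TIA1 locus had 3 sites, so the TIA1 count was 0. In the other 8 alternatives for this share the odds ratio was 1.44 to 5.03. A log2 fold of at least 4 left 243 sites in 229 loci, with 13.6% of sites of 2 or more peaks, 13.99% in the 20 richest loci and 60.1% on the plus strand. The share of sites with 2 or more peaks was also 18.6% with only touching peaks joined, 25.2% with joining within 200 bases, 16.5% without peaks under 20 bases and 25.7% at a −log10 p of at least 5. The share in the 20 richest loci was 5.65% without peaks under 20 bases and 8.45% at a −log10 p of at least 5. These 20 loci were taken from 1863 loci in the main run, 1762 without peaks under 20 bases and 1271 at that −log10 p. At a log2 fold of at least 4 they were 20 of 229 and held 34 of 243 sites. The shares in the 20 richest loci thus have unlike bases, and a higher share cannot be read as closer crowding. The cause of these shifts was not tested. Of the 20 richest loci, 13 kept a place among the 20 without peaks under 20 bases, 14 with grouping within 5 kb and 3 at a log2 fold of at least 4, against 16 to 20 in the other alternatives. With grouping within 20 kb, loci 3 and 8 fell into a locus of 23 sites, which then ranked first. The first rank changed in other alternatives too. Locus 2 held it with every other joining distance and at a −log10 p of at least 5. Locus 6 held it without peaks under 20 bases, and locus 9 at a log2 fold of at least 4. No paired analysis was possible because the deposited values are for both replicates at once, and leaving out a replicate could not be tried either. Location classes, genes and T runs had no hg19 reference, and their alternatives were not run. Depth is unknown, so a stretch without peaks cannot be read as unbound.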
